A study of Mus musculus with 10 samples.

Results

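The genes described are 10 receptors of natural killer (NK) cells: Ncr1, Klrb1c, Klrk1, Klrd1, Klrc1, Klrc2, Klre1, Klrg1, Klra7 and Klra8. They were taken by gene symbol from a table of 22329 genes, and all 10 have a row. The table holds messenger RNA levels in 10 tumours of B16F10, a mouse melanoma cell line, grown under the skin of C57BL6/J mice from injected cells. Each tumour had received 1 intratumoral injection of 80 µg mRNA and was taken 7 days later. In the 5 control tumours (libraries 1 to 5) the mRNA encoded luciferase. In the 5 cytokine mRNA tumours (libraries 6 to 10) it was a mixture of 4 mRNAs, 20 µg each, for single chain IL-12, IL-15sushi, GM-CSF and IFNalpha, all of mouse. The tumours of both groups thus share 1 tumour line, 1 host strain and an mRNA injection, and no group without an injection is analysed here. The sources used here do not give the age or sex of the mice.

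NK cells weigh signals from activating receptors, which see stress-induced or foreign ligands, against signals from inhibitory receptors, which mostly see MHC class I molecules. Activating receptors signal through small adaptors such as the products of Tyrobp, Hcst, Fcer1g and Cd247, and inhibitory receptors recruit phosphatases. Many of these receptors are lectin-like proteins encoded side by side in the NK gene complex of mouse chromosome 6, where RefSeq places 9 of the 10 genes, while Ncr1 is on chromosome 7. Several of them, among them Klrk1, Klrd1, Klrc1 and Klrg1, are also made by activated CD8 T cells, whereas Ncr1 is largely restricted to NK cells and other innate lymphoid cells. IL-12 and IL-15 are cytokines that activate NK cells.

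All values are TPM, the share of a library's transcripts that belongs to a gene, corrected for length and scaled to a fixed total, so levels of different genes may be compared. The depth of the libraries is unknown, and a value of 0 means only that a gene is listed at 0. Of 5171 genes above 20 TPM in every control tumour, 8 were listed at 0 in library 6 and 23 in library 7, and none in the other 8 libraries. Library 7 also stood apart in chemosensory receptor genes, of which 279 of 1536 were above 0 there. The control libraries had 14 to 24 of these, and libraries 6, 8, 9 and 10 had 22 to 43. Its melanocyte markers were low, with a sum over 8 genes of 41.9 TPM against 2604 TPM or more in the control libraries. Library 10 resembled the controls: its mean Pearson r across genes, which are not independent replicates, was 0.930 to controls against 0.811 to libraries 6 to 9. The mean r to controls was 0.758 for library 6 and 0.586 for library 7. Across ribosomal protein genes, the difference in log2(TPM + 1) from the control mean had an SD of 0.291 to 0.421 in control libraries. In libraries 6 to 10 that SD was 1.58, 2.10, 0.730, 0.555 and 0.361. The share of mitochondrial genes was 16.2% to 27.9% in control and 4.44% to 19.2% in cytokine mRNA tumours. The part of these differences in the results below was not tested. In whole tumours, fewer cells of a type and less RNA per cell cannot be told apart.

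The receptor genes were low in control tumours and higher in most cytokine mRNA tumours. Of the 50 control values, 32 were listed at 0, against 1 of the 50 cytokine mRNA values. The 10 genes summed to between 0 and 12.8 TPM in the control libraries. In cytokine libraries 6 to 10 they summed to 237, 419, 169.9, 80.7 and 21.0 TPM. Control library 5 listed all 10 genes at 0. Library 7 had the highest value in 8 of the genes and library 6 in the other two, Klrd1 and Klrc2. Library 10 had the lowest cytokine mRNA value in 9, Klra7 being the exception.

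**Figure D1:**
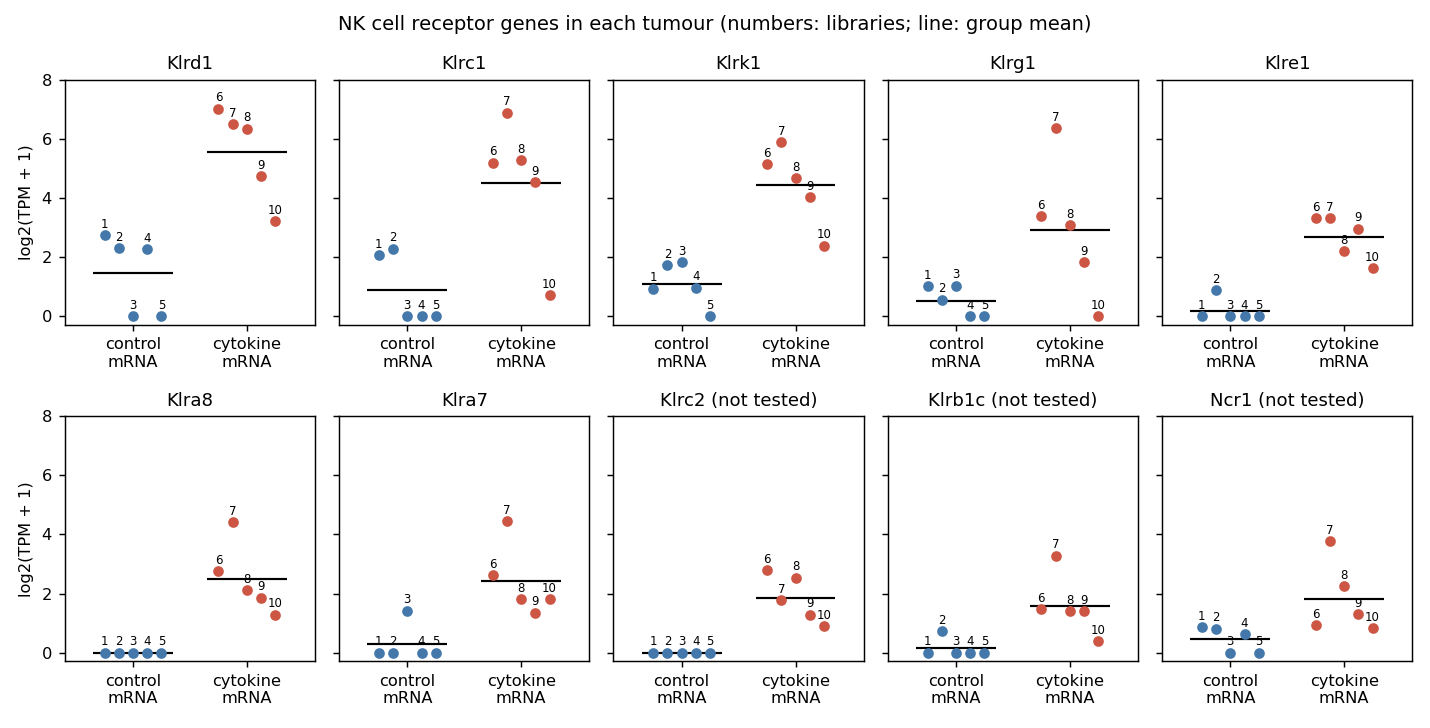
Level of each receptor gene in each tumour as log2(TPM + 1) (vertical axis) in control (blue) and cytokine mRNA tumours (red). Points are tumours with their library number and lines are group means. Library 5 lies at 0 in every panel, and library 10 lies lowest of its group in 9 of 10 panels.

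Genes with at least 1 TPM in at least 5 libraries were tested with limma, on log2(TPM + 1), with p-values adjusted over all 12497 such genes by Benjamini-Hochberg. The filter passed 7 receptor genes. Ncr1, Klrb1c and Klrc2 did not pass it. Of the 7, 6 were called higher at an adjusted p under 0.05, none lower, and Klrg1 was not called. Among all genes tested, 7.41% were called higher, 3.02% lower and 10.4% in either direction. Klre1 and Klra8 reached 1 TPM in no control library, so they passed the filter through the cytokine mRNA tumours alone and had to differ. Over all 10 genes the change ran from 1.36 to 4.10 on the log2(TPM + 1) scale, with a median of 2.45, beside a median of -0.18 over all genes tested. Without the filter all 10 were tested among 17505 genes, and 5 were called (Klrk1, Klrd1, Klrc2, Klre1 and Klra8), all higher, where 3.86% of all genes were called higher, 0.971% lower and 4.83% in either direction. Without libraries 6 and 7 together, limma called 0 of the 7, and 20 of all 12497 genes. In 5 of the 10 genes (Klrk1, Klrd1, Klrc2, Klre1 and Klra8) every cytokine mRNA value lay above every control value, which held for 4.24% of the 17505 genes above 0 in any library and 5.45% of the 12497 tested.

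**Figure D2:**
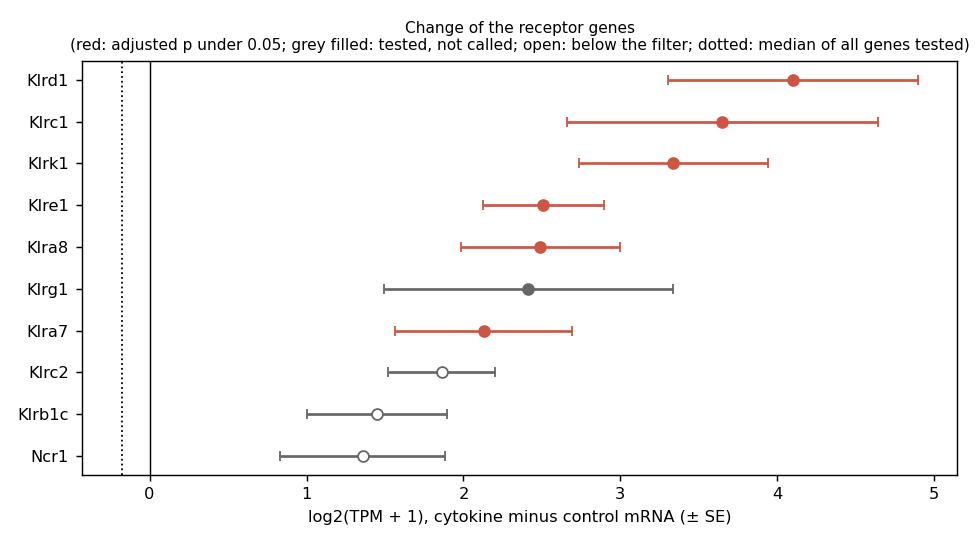
Change of each receptor gene between cytokine and control mRNA tumours on the log2(TPM + 1) scale (horizontal axis), with bars of 1 SE. Red points were called by limma, the grey filled point (Klrg1) was tested and not called, and open points are the 3 genes below the filter, with the SE of the fit without the filter. The dotted line at -0.18 is the median of all genes tested.

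Among the activating receptors, Klrk1 encodes NKG2D, which binds stress-induced relatives of MHC class I. Klrk1 was at 0.895, 2.31, 2.52, 0.945 and 0 TPM in control libraries 1 to 5. In cytokine libraries 6 to 10 it was at 34.2, 58.3, 24.5, 15.3 and 4.21 TPM. The groups did not overlap, and library 10 came nearest to the controls. Klrk1 rose by 3.34 ± 0.60 (SE) on the log2(TPM + 1) scale (limma adjusted p = 0.0129). The call held with each library left out in turn (limma adjusted p of 0.000659 to 0.0452).

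Ncr1 encodes NKp46, an activating receptor widely used to define NK cells. Its control values were 0.820, 0.751, 0, 0.553 and 0 TPM. The cytokine mRNA values were 0.916, 12.7, 3.76, 1.46 and 0.781 TPM. Library 10 lay within the control range and library 6 just above it, although library 6 had the highest Klrd1 value of all. The mean of log2(TPM + 1) differed by 1.36, and the fit without the filter gave a limma adjusted p = 0.151. The cytokine mRNA mean of Ncr1 was 3.92 TPM with library 7 and 1.73 TPM without it.

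Klrb1c encodes NK1.1, the activating surface antigen by which NK cells of C57BL/6 mice are usually sorted. It was listed at 0 in control libraries 1, 3, 4 and 5 and at 0.651 TPM in library 2. In libraries 6 to 10 it was at 1.80, 8.73, 1.64, 1.65 and 0.313 TPM. Library 10 again lay within the control range. The difference was 1.45 on the log2(TPM + 1) scale (limma adjusted p = 0.0840 without the filter), and the cytokine mRNA mean was 2.83 TPM with library 7 and 1.35 TPM without it.

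Klrd1 encodes CD94, the shared partner of NKG2A and NKG2C, with which it sees the class Ib molecule Qa-1. It was the most abundant of the receptor genes in cytokine mRNA tumours. The control values were 5.62, 3.92, 0, 3.77 and 0 TPM. Klrd1 reached 129.0, 88.5, 80.2, 25.4 and 8.18 TPM in libraries 6 to 10. No control tumour overlapped with a cytokine mRNA tumour. Klrd1 rose by 4.10 ± 0.79 (SE) on the log2(TPM + 1) scale (limma adjusted p = 0.0149), and its call held with each library left out in turn (limma adjusted p up to 0.0488).

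Its inhibitory partner NKG2A is encoded by Klrc1, which was at 3.17, 3.85, 0, 0 and 0 TPM in control tumours. Libraries 6 to 9 reached 35.6, 117, 38.1 and 22.0 TPM, and library 10 stood at 0.622 TPM, below control libraries 1 and 2. Klrc1 rose by 3.65 ± 0.99 (SE) on the log2(TPM + 1) scale (limma adjusted p = 0.0398). That call rested on single libraries: it was lost in 9 of the 10 fits with a library left out, with a limma adjusted p up to 0.101, and stayed only without library 10.

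The activating partner NKG2C is encoded by Klrc2, which was listed at 0 in every control tumour. Its cytokine mRNA values were 5.99, 2.45, 4.82, 1.44 and 0.844 TPM. Klrc1 was the more abundant of this inhibitory and activating pair in libraries 6 to 9, at 5.94, 47.8, 7.90 and 15.3 times the TPM of Klrc2. In library 10 it was at 0.737 times the TPM of Klrc2. The difference between both genes, on the log2(TPM + 1) scale, was not shown to change with treatment (exact permutation, adjusted p = 0.152), but it did without library 10 (exact permutation, adjusted p = 0.0381).

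Klre1 encodes a lectin-like receptor that pairs with the products of Klri1 or Klri2, whose short or long tails decide between activation and inhibition. Control library 2 listed Klre1 at 0.821 TPM and the other control tumours at 0. The cytokine mRNA values of 8.84, 8.96, 3.61, 6.76 and 2.09 TPM lay close together compared with those of the other receptors. Klre1 rose by 2.51 ± 0.39 (SE) on the log2(TPM + 1) scale (limma adjusted p = 0.00961). The partner genes, named after their values were seen, were below the filter. Klri1 was at 5.00, 9.58, 1.97, 0 and 0.729 TPM and Klri2 at 3.52, 9.46, 2.32, 0.435 and 0.210 TPM in libraries 6 to 10, and neither exceeded 0.909 TPM in a control tumour.

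Klrg1 encodes an inhibitory receptor for cadherins that marks mature NK cells and effector CD8 T cells. It was at 0.996, 0.467, 1.03, 0 and 0 TPM in control tumours. Libraries 6 to 10 had 9.36, 81.2, 7.46, 2.51 and 0 TPM, so library 7 stood far above the rest and library 10 was listed at 0. The difference of 2.41 ± 0.92 (SE) on the log2(TPM + 1) scale did not pass (limma adjusted p = 0.107). Without library 10 Klrg1 passed (limma adjusted p = 0.0134), and its cytokine mRNA mean of 20.1 TPM was 4.83 TPM without library 7.

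Klra7 and Klra8 belong to the Ly49 family, the mouse receptors for classical MHC class I. Klra7 encodes the inhibitory Ly49G, and Klra8 the activating Ly49H, known for binding a protein of mouse cytomegalovirus and signalling through the adaptor encoded by Tyrobp. Klra7 was listed at 0 in control tumours except library 3, at 1.68 TPM, and was at 5.16, 20.9, 2.51, 1.56 and 2.54 TPM in libraries 6 to 10. Library 9 lay below that control value. Klra8 was listed at 0 in every control tumour and was at 5.74, 20.6, 3.37, 2.63 and 1.43 TPM. Klra7 rose by 2.13 ± 0.56 (SE) and Klra8 by 2.49 ± 0.51 (SE) on the log2(TPM + 1) scale (limma adjusted p = 0.0373 and 0.0162). The call of Klra7 was lost in 6 of 10 fits with a library left out (limma adjusted p up to 0.0920). In libraries 6 to 10 the log2(TPM + 1) difference Klra7 minus Klra8 was -0.13, 0.02, -0.32, -0.50 and 0.54. Its mean was -0.08 ± 0.40 (SD, n = 5) after cytokine mRNA, beside 0.28 ± 0.64 after luciferase mRNA, and it was not shown to change (exact permutation, adjusted p = 0.454).

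By the median over the cytokine mRNA tumours the order of levels was Klrd1 (80.2 TPM), Klrc1 (35.6), Klrk1 (24.5), Klrg1 (7.46), Klre1 (6.76), Klra8 (3.37), Klra7 (2.54), Klrc2 (2.45), Klrb1c (1.65) and Ncr1 (1.46). The first 3 genes each exceeded the next in 4 of 5 tumours. Klrg1 exceeded Klre1 in 3 of 5, and from Klra8 down to Ncr1 the neighbours exceeded each other in 2 or 3 of 5, so that this part of the order lay within the spread. Klrd1, Klrk1 and Klrc1 together made up 61.9% to 84.0% of the summed TPM of the 10 genes in each cytokine mRNA tumour. Ncr1 made up 0.387% to 3.72%.

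The change of the most abundant receptors was larger than that of Ncr1 on the log2(TPM + 1) scale. Within each tumour, Klrd1 minus Ncr1 was 0.99 ± 0.92 (SD, n = 5) after luciferase mRNA and 3.73 ± 1.47 after cytokine mRNA (exact permutation p = 0.00794, adjusted over 8 gene pairs p = 0.0212), without overlap of the groups. Klrk1 minus Ncr1 was 0.62 ± 0.76 and 2.60 ± 0.99 (exact permutation, adjusted p = 0.0317). Klrb1c and Ncr1, by contrast, were not shown to change unequally, with a difference of -0.32 ± 0.40 after luciferase mRNA and -0.23 ± 0.55 after cytokine mRNA (exact permutation, adjusted p = 0.770). A p of 0.00794 is the smallest that 5 against 5 tumours can give.

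TPM ratios were taken where both genes were above 0. Control libraries 3 and 5, with Ncr1 at 0, thus gave no ratio, although library 3 had Klrk1 at 2.52 TPM. The control ratios are therefore those of the control tumours with the most Ncr1, which can make them low. Klrd1 was at 6.85, 5.21 and 6.82 times Ncr1 in control libraries 1, 2 and 4, and at 141, 6.98, 21.3, 17.4 and 10.5 times Ncr1 in libraries 6 to 10. Klrk1 was at 1.09, 3.08 and 1.71 times Ncr1 in these controls and at 4.59 to 37.3 times in cytokine mRNA tumours. Library 7, with the most Ncr1, had the lowest of these ratios in its group for both genes. With a pseudocount of 0.1 the adjusted exact permutation p was 0.0635 for Klrd1 minus Ncr1 and 0.339 for Klrk1 minus Ncr1, so these calls depend on how values near 0 are treated.

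On the log2(TPM + 1) scale, which understates changes of low genes, Ncr1 also changed less than a gene of all leukocytes and a gene of T cells. Ptprc encodes CD45, the surface phosphatase of all white blood cells, and Cd3e a chain of the T cell receptor complex. Ncr1 minus Ptprc was -3.80 ± 0.51 (SD, n = 5) after luciferase mRNA and -5.99 ± 1.06 after cytokine mRNA (exact permutation, adjusted p = 0.0212), and all 5 cytokine mRNA tumours lay below all controls, library 10 (-4.55) barely below control library 3 (-4.54). Ncr1 minus Cd3e went from -1.74 ± 0.70 to -5.42 ± 1.53 (exact permutation, adjusted p = 0.0212), again without overlap. In TPM, Ptprc was at 29.5 to 35.4 times Ncr1 in control libraries 1, 2 and 4 and at 52.0 to 387 times in cytokine mRNA tumours. Control libraries 3 and 5 had Ptprc at 22.2 and 7.63 TPM with Ncr1 at 0, so they gave no ratio. With a pseudocount of 0.1 these 2 differences did not pass (exact permutation, adjusted p = 0.529 for Ptprc and 0.127 for Cd3e).

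Klrd1 was not shown to change differently from Cd3e: their difference was -0.74 ± 0.95 (SD, n = 5) after luciferase mRNA and -1.69 ± 1.05 after cytokine mRNA (exact permutation, adjusted p = 0.254). Without control library 3, in which Klrd1 was listed at 0, it passed (exact permutation, adjusted p = 0.0254), and with a pseudocount of 5 too (0.0127). Where both were above 0, Cd3e was at 0.928 to 1.45 times Klrd1 in 3 control tumours and at 2.01 to 11.8 times in the 5 cytokine mRNA tumours, with the highest ratio in library 7. Control libraries 3 and 5 had Cd3e at 4.12 and 0.610 TPM with Klrd1 at 0, so they gave no ratio.

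**Figure D3:**
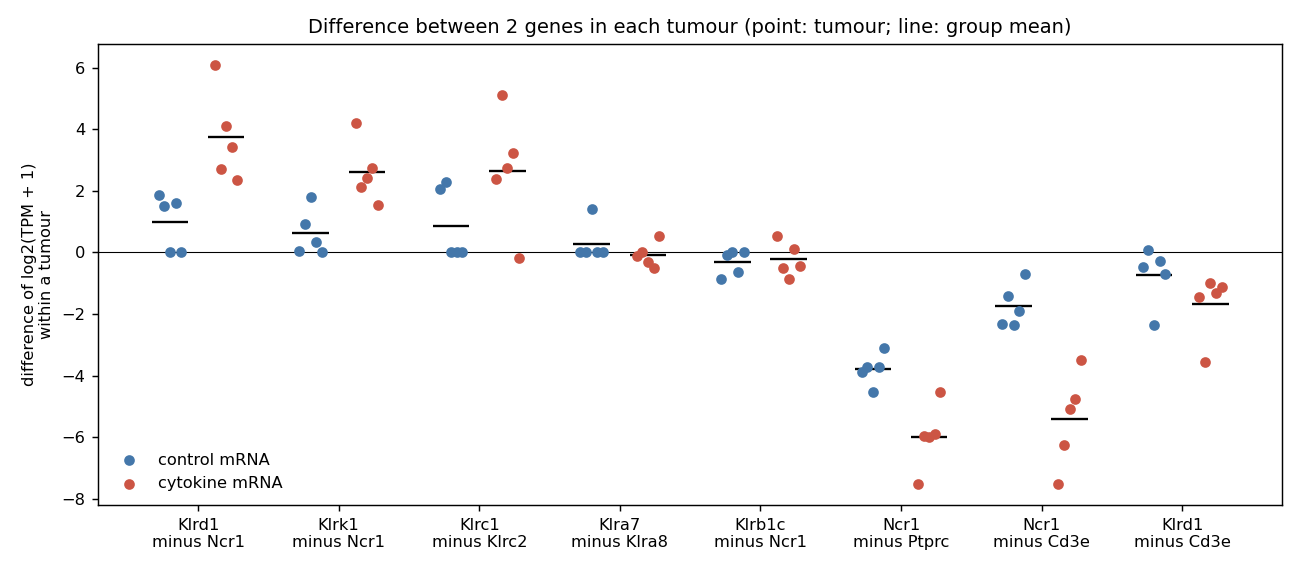
Difference between 2 genes within each tumour in log2(TPM + 1) (vertical axis) for 8 gene pairs, in control (blue) and cytokine mRNA tumours (red). Points are tumours and lines are group means. The groups do not overlap for Klrd1 minus Ncr1, Ncr1 minus Ptprc and Ncr1 minus Cd3e.

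The values of some of these genes are less certain because they share sequence with others. In GENCODE release M21 transcripts, 38.6% of the 50-base words of Klrc1 also occur in another gene. Of all its words 36.6% occur in Klrc2, and 16.3% of the words of Klrc2 occur elsewhere. For Klra8 the share was 33.1%, most of it with the pseudogene Klra14-ps, and for Klra7 it was 12.3%, with Klra13-ps. For Klrb1c it was 17.0%. Ncr1, Klrk1, Klrd1 and Klrg1 shared no such word with any other gene, and Klre1 shared 0.280%. The sources used here do not say how shared reads were divided, so the values of Klrc1, Klrc2, Klra7, Klra8 and Klrb1c are uncertain in that respect.

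**Figure D4:**
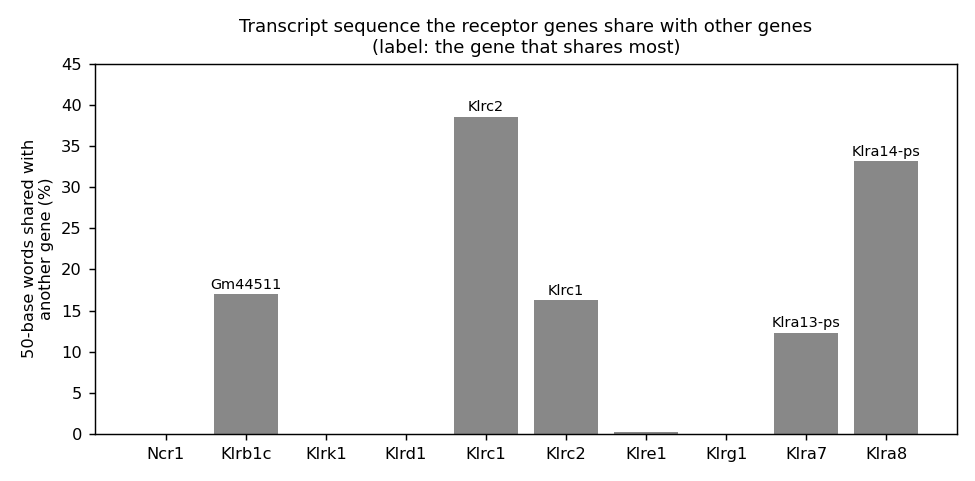
Share of the distinct 50-base words in the annotated transcripts of each receptor gene that also occur in transcripts of another gene (vertical axis, percent). Labels name the gene that shares most. Klrc1 has the highest share at 38.6%, and 4 genes have none.

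The start-site regions of 4 genes are shown for a motif that they share. RefSeq windows (build GRCm38.p6, from upstream of the transcription start to just after it) were matched by symbol for 8 of the 10 genes. RUNX proteins are transcription factors of NK cells and CD8 T cells, and their motif TGTGGT, searched on both strands, occurred in the windows of 6 of the 8 genes: Ncr1, Klrb1c, Klrk1, Klrc1, Klrc2 and Klre1. Of all 27025 genes with a window, 18.9% hold it. The 4 windows below, 5′ to 3′ along the gene, show it in capitals (TGTGGT or its reverse complement ACCACA).
Ncr1 (chr7:4337465-4337764, plus strand): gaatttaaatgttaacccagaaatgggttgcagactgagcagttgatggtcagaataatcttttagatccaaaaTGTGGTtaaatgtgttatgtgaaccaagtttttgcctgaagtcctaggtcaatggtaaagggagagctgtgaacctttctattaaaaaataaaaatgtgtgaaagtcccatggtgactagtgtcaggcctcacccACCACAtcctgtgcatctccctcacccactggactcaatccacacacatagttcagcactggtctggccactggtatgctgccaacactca
Klrb1c (chr6:128788592-128788891, minus strand): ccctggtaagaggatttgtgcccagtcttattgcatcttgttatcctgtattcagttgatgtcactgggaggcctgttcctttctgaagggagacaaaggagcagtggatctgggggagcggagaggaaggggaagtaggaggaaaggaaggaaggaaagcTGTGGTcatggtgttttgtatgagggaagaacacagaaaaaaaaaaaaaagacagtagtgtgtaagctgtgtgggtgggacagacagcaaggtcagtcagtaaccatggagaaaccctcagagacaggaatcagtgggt
Klrk1 (chr6:129623815-129624114, minus strand): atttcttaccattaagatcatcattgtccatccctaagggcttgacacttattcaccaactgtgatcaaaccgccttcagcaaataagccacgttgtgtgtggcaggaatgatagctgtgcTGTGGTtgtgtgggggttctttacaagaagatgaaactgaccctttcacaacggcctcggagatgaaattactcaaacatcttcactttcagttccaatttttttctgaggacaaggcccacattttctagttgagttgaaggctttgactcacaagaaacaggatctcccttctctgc
Klrc1 (chr6:129678924-129679223, minus strand): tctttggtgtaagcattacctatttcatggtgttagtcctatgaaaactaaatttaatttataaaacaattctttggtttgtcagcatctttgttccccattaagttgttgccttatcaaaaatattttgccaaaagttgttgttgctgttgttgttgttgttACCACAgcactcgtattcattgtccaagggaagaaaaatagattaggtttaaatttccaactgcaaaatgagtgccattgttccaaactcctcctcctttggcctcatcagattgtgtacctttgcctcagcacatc
In Ncr1 the motif lies 176 and 41 bases before the start, in Klrb1c 89, in Klrk1 129 and in Klrc1 87, counted to its first base. The T-box factor motif TCACAC, on both strands, was found in 2 of the 8 genes (Ncr1 and Klre1) and in 16.4% of all genes. The ETS motif GGAAGT was found in Klrb1c, and in 26.5% of all genes, and the STAT motif TTCNNNGAA in Klra7, and in 9.55%. A match is a description of these letters and not evidence of binding.

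For the Ly49 genes, each window of Klra7 was compared with each window of Klra8, and only the best matching pair is shown. Its likeness is thus the closest found and not that of all their start sites. The best matching windows of Klra7 and Klra8 were identical at 231 of 291 aligned positions (79.4%). Capitals mark bases that differ or lie outside the alignment.
Klra7 (chr6:130233273-130233572, minus strand): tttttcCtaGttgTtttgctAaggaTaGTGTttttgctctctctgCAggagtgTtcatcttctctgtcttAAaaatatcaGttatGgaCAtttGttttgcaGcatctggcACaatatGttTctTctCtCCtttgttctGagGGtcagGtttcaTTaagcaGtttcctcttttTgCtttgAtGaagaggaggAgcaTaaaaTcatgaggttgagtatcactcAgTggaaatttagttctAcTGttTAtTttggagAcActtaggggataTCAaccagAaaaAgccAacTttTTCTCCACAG
Klra8 (chr6:130129849-130130148, minus strand): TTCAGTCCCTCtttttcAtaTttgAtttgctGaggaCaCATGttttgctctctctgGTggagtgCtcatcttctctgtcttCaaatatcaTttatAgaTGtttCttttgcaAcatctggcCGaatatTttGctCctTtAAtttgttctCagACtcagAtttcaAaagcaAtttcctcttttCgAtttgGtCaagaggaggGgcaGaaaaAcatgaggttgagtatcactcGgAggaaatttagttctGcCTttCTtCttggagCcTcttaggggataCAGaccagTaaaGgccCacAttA
Neither window holds TGTGGT. Klra7 and Klra8 were at 1.56 and 2.63 TPM in library 9 and at 2.54 and 1.43 TPM in library 10. Any link between these letters and the RNA levels was not tested.

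Many other NK receptor genes moved the same way, but Klra2 was the only Klr gene among them to be called. Of 29 such genes listed, 28 have a row and 15 were tested: 11 rose, none fell, and the median change was 2.66 on the log2(TPM + 1) scale. The 4 tested genes not called were Klra3, Klra6, Klrb1b and Klrb1f, and the other Klr genes with a row were below the filter. Cd96, called and at up to 0.790 TPM in control tumours, passed the filter through the cytokine mRNA tumours alone and had to differ. Slamf7, a receptor of the SLAM family, rose from a control range of 0.474 to 8.91 TPM to a cytokine mRNA range of 18.5 to 247 TPM (limma adjusted p = 0.0123). Cd226, the activating receptor DNAM-1, rose from 0 to 1.11 TPM to 0.744 to 55.7 TPM, with overlap of the groups. Klra2, a Ly49 family gene that macrophages also express, rose from 0 to 5.23 TPM to 8.05 to 139 TPM, and Fcgr3, the Fc receptor CD16 of NK and myeloid cells, from 3.52 to 27.6 TPM to 27.1 to 343 TPM. Leaving out a library lost the call of Cd226 in 4 of 10 fits and those of Klra2 and Fcgr3 in 1 each. Klra10 and Klrb1 were listed at 0 in all libraries. Klra3 and Klrc3, named after their values were seen, were not called: Klra3 had a limma adjusted p of 0.0762 and Klrc3, below the filter, was at 0 in libraries 1 to 5 and 10 and reached 6.72 TPM in library 7. Without library 6 this list had 1 called gene, without library 7 it had 7, and without libraries 6 and 7 none. Of all genes tested, 2.57%, 5.23% and 0.152% were called higher in these fits, beside 7.41% with all libraries.

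Adaptor genes through which the activating receptors signal rose as well. Of 15 tested genes of adaptors and signalling, 8 rose and none fell, with a median change of 2.23. The 7 not called, named after their values were seen, were Plcg2, Lat2, Lck, Ptpn6, Pik3cd, Fyn and Ptpn11. Their limma adjusted p ran from 0.0617 to 0.491. Tyrobp, which encodes DAP12, rose from a control range of 1.96 to 32.5 TPM to 47.4 to 701 TPM (limma adjusted p = 0.0222), a call lost in 2 of 10 fits with a library left out. Hcst, which encodes DAP10, the partner of NKG2D, rose from 0 to 5.29 TPM to 3.79 to 76.4 TPM, with overlap, a call lost in 7 of 10 fits with a library left out. Fcer1g, shared by NK cells, macrophages and mast cells, rose from 26.6 to 255 TPM to 252 to 3077 TPM, a call lost in 4 of these fits. Cd247, the zeta chain of NK and T cell receptors, rose from 0 to 1.18 TPM to 1.46 to 21.2 TPM (limma adjusted p = 0.0149). The count was 3 without library 6 and 13 without library 10, and 0 without libraries 6 and 7. The share of all genes tested that was called higher was 2.57%, 13.2% and 0.152% in these fits, beside 7.41% with all libraries.

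The ligands moved in both directions. Of 21 ligand genes listed, 16 have a row and 12 were tested, of which 4 rose and 1 fell, with a median change of 1.12. The same fit called 7.41% of all genes tested higher and 3.02% lower. H2-T23 encodes Qa-1, the ligand of CD94 with NKG2A or NKG2C, and rose from 6.46 to 33.4 TPM to 70.4 to 212 TPM without overlap, also in library 10 (limma adjusted p = 0.0107). Clec2d, whose product Clr-b is seen by an inhibitory NKR-P1 receptor, rose from 6.73 to 51.8 TPM to 60.2 to 175 TPM. H2-K1, which encodes a classical class I heavy chain, went from 84.3 to 448 TPM up to 605 to 2362 TPM, and Cfp, the gene of properdin, described as a ligand of NKp46, from 3.73 to 35.6 TPM to 21.6 to 343 TPM, a call lost in 6 of 10 fits with a library left out. Several ligand genes named after their values were seen follow. Cdh2, the N-cadherin gene whose product binds KLRG1, fell from 28.1 to 43.7 TPM to 3.76 to 25.9 TPM (log2 change of -1.45 ± 0.39, SE, limma adjusted p = 0.0375), a call lost in 8 of 10 fits with a library left out. The NKG2D ligand genes Raet1d, at 5.28 to 14.1 TPM in control and 2.67 to 7.07 TPM in cytokine mRNA tumours, and Ulbp1, at 5.32 to 31.3 and 8.43 to 14.4 TPM, did not pass (limma adjusted p = 0.0711 and 0.472). H2-D1 did not pass either (limma adjusted p = 0.0590). Without libraries 6 and 7 none of the ligand genes was called higher, beside 0.152% of all genes tested.

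Genes of NK cell regulation and killing were mostly higher. Of 21 tested, 18 rose and none fell, with a median change of 3.38. Il12rb2 and Txk, at up to 0.747 and 0.883 TPM in control tumours, passed the filter through the cytokine mRNA tumours alone and had to differ. Gzma, a granzyme, rose from 0 to 3.60 TPM to 3.09 to 1326 TPM, with overlap and a call lost in 7 of 10 fits with a library left out. Nkg7, a granule protein gene, rose from 0 to 17.4 TPM to 23.6 to 411 TPM, Ifng, the interferon gamma gene, from 0 to 2.79 TPM to 8.81 to 114 TPM, and the chemokine gene Ccl5 from 9.26 to 90.0 TPM to 169.6 to 1598 TPM (limma adjusted p = 0.0135, 0.0107 and 0.00961). All of these are also products of T cells. Eomes, Tbx21, Itga2, Nfil3, Xcl1, Txk and Id2 of this list were named after their values were seen. Eomes, a T-box factor, was below the filter at 0.147 to 0.884 TPM in control and 2.04, 9.01, 1.64, 0.623 and 0.654 TPM in libraries 6 to 10. Itga2, the integrin recognised by the NK antibody DX5, was at 0.958 to 6.99 and 1.26 to 6.74 TPM and did not pass (limma adjusted p = 0.637). Nor did Nfil3 and Xcl1 (limma adjusted p = 0.0762 and 0.280). Tbx21 was below the filter, at 0 to 0.619 TPM in control and 0.817 to 13.3 TPM in cytokine mRNA tumours. Txk and Id2 were called higher (limma adjusted p = 0.0311 and 0.0160). Without library 6 the count was 8 and without libraries 6 and 7 it was 1, in fits that called 2.57% and 0.152% of all genes tested higher. With all libraries that share was 7.41%.

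Markers of other cell types moved with the receptor genes. Of 15 T cell markers 9 were tested, and all 9 rose, with a median change of 4.14. Cd6, at up to 0.730 TPM in control tumours, passed the filter through the cytokine mRNA tumours alone and had to differ. The 15 markers summed to 0.610 to 40.0 TPM in control and 69.7 to 4323 TPM in cytokine mRNA tumours, highest in library 7 and lowest in library 10, as for most of the receptor genes. Cd3e rose from 0.610 to 8.15 TPM to 19.1 to 1047 TPM, Cd8a, which marks CD8 T cells, from 0 to 2.67 TPM to 4.52 to 194 TPM, and the receptor chain genes Trac and Trbc2 rose too (limma adjusted p = 0.0127, 0.0149, 0.0218 and 0.0260). Trac was at 0 to 22.2 TPM in control and 22.6 to 1574 TPM in cytokine mRNA tumours, and Trbc2 at 0 to 7.10 and 3.45 to 242 TPM. Leaving out a library lost the call of Trac in 4 of 10 fits and that of Trbc2 in 6. None of the 15 was listed at 0 in all libraries. The 3 pan-leukocyte genes Ptprc, Laptm5 and Coro1a all rose, the call of Laptm5 being lost in 7 of 10 fits with a library left out and that of Coro1a in 1. Ptprc went from 7.63 to 26.1 TPM to 40.6 to 852 TPM, and their sums ran from 39.7 to 305 TPM in control and 258 to 2354 TPM in cytokine mRNA tumours. Of 4 tested markers of type 1 innate lymphoid cells from a list of 5, relatives of NK cells that also carry NKp46, 3 rose: Il7r, Cxcr6 (a call lost in 3 of 10 such fits) and Tnfsf10, all of which T cells express too. Itga1, named after its values were seen, was at 6.97 to 20.7 TPM in control and 7.35 to 17.0 TPM in cytokine mRNA tumours. It was not called (log2 change of -0.05, limma adjusted p = 0.924). The innate lymphoid list summed to 10.7 to 25.4 and 20.5 to 182 TPM. The part of these cell types in the receptor values was not tested. Without library 6, 4 of the T cell markers were called, and without libraries 6 and 7 none of the T cell, pan-leukocyte or innate lymphoid markers. These fits called 2.57% and 0.152% of all genes tested higher, beside 7.41% with all libraries.

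**Figure D5:**
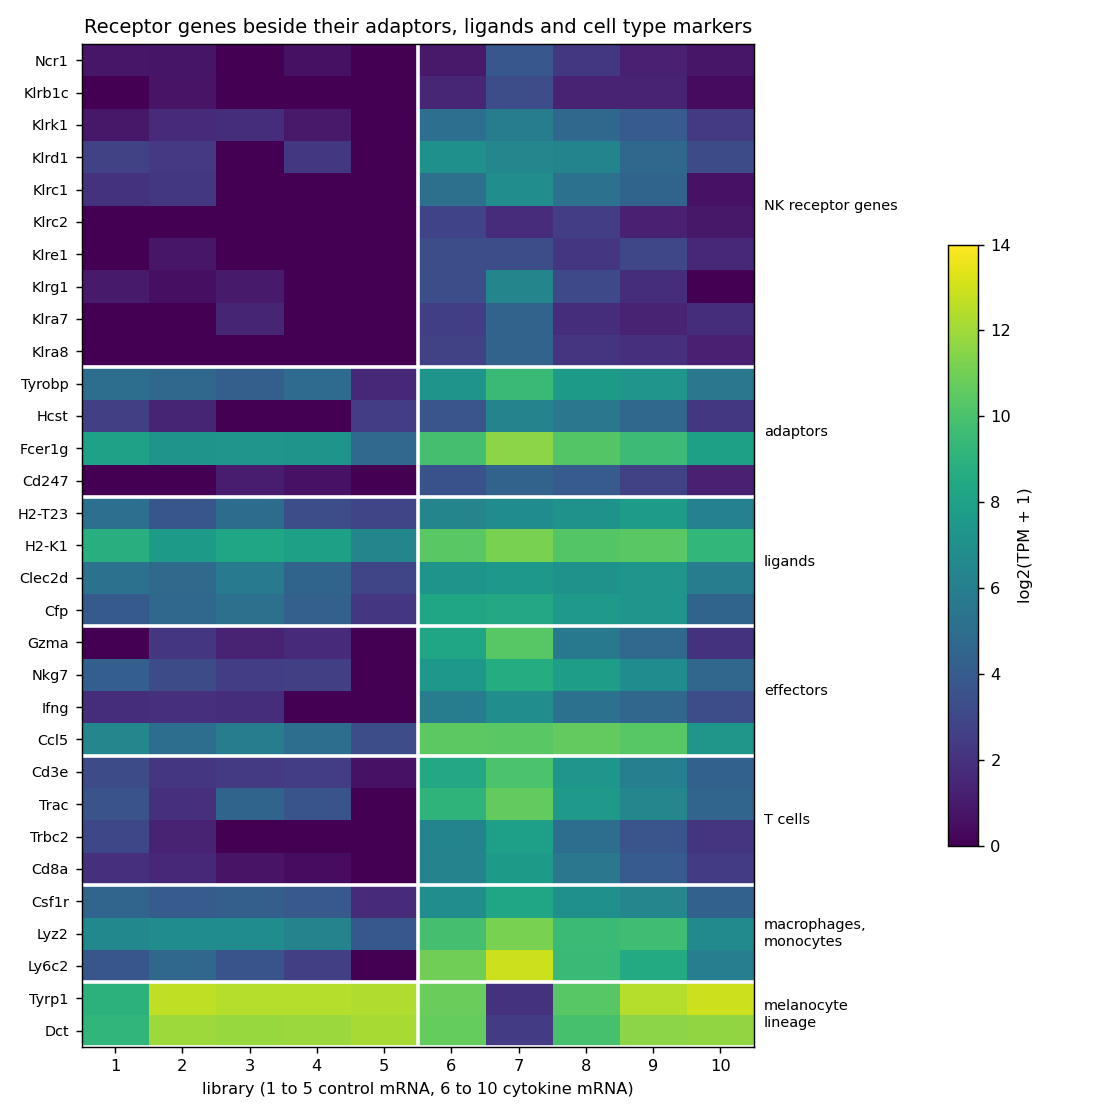
Levels as log2(TPM + 1) (colour) of the 10 receptor genes, of adaptor, ligand and effector genes and of markers of T cells, macrophages and monocytes and the melanocyte lineage (rows) in each library (columns). In most immune rows, libraries 6 to 9 are brighter than libraries 1 to 5, and library 10 is dimmer than libraries 6 to 9. Klra7 is an exception to both. Library 7 is dark in the melanocyte rows.

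Of 10 macrophage and monocyte markers 9 rose, with sums of 112 to 336 TPM in control and 519 to 12917 TPM in cytokine mRNA tumours. The count was 3 without library 6 and 0 without libraries 6 and 7, in fits that called 2.57% and 0.152% of all genes tested higher. With all libraries that share was 7.41%. The largest changes were in Ly6c2 (0 to 24.8 TPM against 63.6 to 7691 TPM), Lyz2 (13.5 to 110.4 against 99.9 to 2355 TPM) and Csf1r (2.18 to 22.7 against 19.4 to 304 TPM). In library 7, Ly6c2 alone gave 7691 of the 12917 TPM of the list, so that sum rests largely on 1 gene. Leaving out a library lost the call of Lyz2 in 5 of 10 fits and that of Csf1r in 7. None of 8 melanocyte lineage markers passed limma, and their median change was -1.86. Tyrp1 was at 508 to 6568 TPM in control and 3.16 to 7910 TPM in cytokine mRNA tumours, and Dct at 593 to 4589 and 4.60 to 3297 TPM, with library 7 the lowest for both.

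The 5 other genes whose levels over the 10 libraries were most like the mean log2(TPM + 1) of the receptor genes were Arrb2, Mefv, Mertk, Plcl2 and Shisa5. After centring, their root mean square difference from that profile was 0.25, 0.26, 0.26, 0.27 and 0.27, among 12490 genes compared. Arrb2 encodes a beta-arrestin, Mefv the pyrin protein of inflammasomes and Mertk a macrophage receptor for dying cells. Arrb2 ran from 30.3 to 56.7 TPM in control and 72.9 to 927 TPM in cytokine mRNA tumours, and Mertk from 3.01 to 7.01 and 6.79 to 64.2 TPM. Mefv, Plcl2 and Shisa5 were at up to 1.03, 1.84 and 386 TPM in control tumours and up to 24.6, 30.7 and 5653 TPM in cytokine mRNA tumours.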

How the data were processed

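Messenger RNA was measured in 10 tumours, 5 per group, assigned by the title of each sample and numbered as there. Stranded NuGEN libraries were made from DNase-treated RNA, per the labels' protocols. The authors deposited 1 table of TPM values. Per the submitters' processing notes, STAR and the build GRCh38 were used. GRCh38 is a human build while the table holds mouse symbols, so no coordinates are taken for the measurements. The sources used here do not name the counting program or annotation. The table holds 583 values between 0 and 1e-10. No 2 libraries hold identical values, and the labels give no batch.

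Values were transformed to log2(TPM + 1) and every gene reaching 1 TPM in 5 or more libraries was tested with limma 3.58.1 in R 4.3.3 (eBayes with trend, 2-sided), adjusted by Benjamini-Hochberg. This scale understates changes of low genes. Differences between 2 genes were tested by exact 2-sided permutation over tumours, adjusted over 8 pairs (scipy 1.17.1). The steps were tested on simulated data. The receptor genes, the 13 other gene lists, the pairs and the tests were chosen with earlier results of these data known. Named are all receptor genes, for each list up to 4 called genes of greatest change, or otherwise the 2 highest in level, the genes of the pairs and the 5 nearest profiles. Others are said to be named after their values were seen. Raet1a, Raet1b, Raet1c, H60a, Clec2f and Klrh1 are not analysed here. Cd244a was matched as Cd244. The values of 1 macrophage and monocyte marker that this rule names are not reported here. Promoter windows are RefSeq's.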

Additional observations from a re-analysis of the deposited data

Results flagged for a closer look

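Of 36 sets of 5 values (10 receptor genes and 8 gene pairs in each group), 10 held a value far from the other 4, by Dixon's criterion at 95%, which chance gives in about 1 of 20 sets of normally distributed values. That rate does not apply to TPM values with many at 0. Library 7 was the high value in the cytokine mRNA tumours for Ncr1 (12.7 TPM, next 3.76), Klrb1c (8.73 TPM, next 1.80), Klrg1 (81.2 TPM, next 9.36), Klra7 (20.9 TPM, next 5.16) and Klra8 (20.6 TPM, next 5.74). It was also the low value for Klrd1 minus Cd3e, at -3.55 on the log2(TPM + 1) scale, where the next tumour was at -1.43. In control tumours single values stood above 4 listed at 0, which the criterion always singles out: Klrb1c in library 2 (0.651 TPM), Klre1 in library 2 (0.821 TPM) and Klra7 in library 3 (1.68 TPM). In library 3, Klra7 minus Klra8 was therefore 1.42 on the log2(TPM + 1) scale, with the other 4 control tumours at 0. The 5 receptor genes for which library 7 stood apart did not include Klrd1, Klrk1, Klrc1, Klrc2 or Klre1.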

How the results depend on the processing

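No paired analysis was possible because the groups share no replicate number. The count of receptor genes called higher, 6 of 7, was 4 to 7 with each library left out in turn, in fits that called 2.57% to 13.2% of all tested genes higher. It was 1 with a filter at 5 TPM, under which Klrd1 alone was tested and 6.70% of all tested genes were called higher, and 0 without libraries 6 and 7, where 0.152% were. By the exact rank test it was also 0, with 6 receptor genes and 2914 of all genes at an unadjusted exact p under 0.05 and a smallest adjusted exact p of 0.0860. In the other 10 alternatives, which cover pseudocounts, no filter, scalings, the variance prior, library quality weights and leaving out libraries 7 and 10, it lay between 4 and 7, beside 3.86% to 12.7% of all tested genes. Over all genes, 926 of 1304 calls were higher with TPM as deposited, 867 of 1444 without the 50 most abundant genes and 829 of 1500 without mitochondrial and receptor segment genes, and the median log2 change over all genes moved from -0.18 to -0.03 with median-ratio scaling and to -0.32 without mitochondrial and receptor segment genes. With a pseudocount of 0.1 the change between groups was 2.80 for Klrd1 minus Ncr1, 1.71 for Klrk1 minus Ncr1, -0.87 for Ncr1 minus Ptprc and -2.71 for Ncr1 minus Cd3e, none of which passed. It was 0.082 for Klrd1 minus Cd3e, a change of sign from -0.95. With a pseudocount of 5, Klrd1 minus Cd3e was -1.30 and passed, and Klrb1c minus Ncr1, 0.09 in the main test, was -0.050. Without libraries 6 and 7, Klrk1 minus Ncr1 was 1.61 and did not pass, Klrb1c minus Ncr1 was -0.078 and Tyrp1 was 0.15. With each library left out, Klrc1 minus Klrc2 ran from 1.18 to 2.50, Klrb1c minus Ncr1 from -0.10 to 0.25, Klrd1 minus Cd3e from -1.35 to -0.48 and Cd79a from -0.30 to 0.34. The Cd79a log2 change, 0.04 in the main test and never called, was -0.30 with a pseudocount of 0.1, -0.0482 without the 50 most abundant genes, -0.0534 without mitochondrial and receptor segment genes and -0.18 after quantile normalization. The cause of these differences was not tested. The counts of the other gene lists under each alternative were added after seeing the data. TPM values keep no depth, so no counting error can be given for values near 0.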

Other observations

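Markers of further immune cell types were also measured, and their part in the receptor values was not tested. Of 7 neutrophil markers 3 were tested and 2 rose: S100a8, a calcium-binding protein gene, was at 0 to 2.57 TPM in control and 0 to 40.1 TPM in cytokine mRNA tumours, and Csf3r, the G-CSF receptor gene, at 0.771 to 8.70 and 6.57 to 124 TPM. The call of S100a8 was lost in 9 of 10 limma fits with a library left out and that of Csf3r in 5. The other neutrophil markers were named after their values were seen. Mmp8 was tested and not called (limma adjusted p = 0.0567). Below the filter, Ly6g, Cxcr2 and Retnlg reached at most 1.27, 0.702 and 3.39 TPM in cytokine mRNA tumours, and S100a9 19.2 TPM. The neutrophil list summed to 1.84 to 9.24 TPM in control and 10.5 to 191 TPM in cytokine mRNA tumours, and the median change of its 3 tested genes was 3.20 on the log2(TPM + 1) scale. Of 6 tested dendritic cell markers 3 rose: Itgax, Siglech and Xcr1. Clec9a, Zbtb46 and Ccr7, named after their values were seen, did not pass (limma adjusted p = 0.0523, 0.492 and 0.0695). Xcr1, the receptor of cross-presenting dendritic cells for the chemokine that NK cells secrete, was at 0 to 1.46 and 2.21 to 8.16 TPM, Siglech at 0 to 1.89 and 1.29 to 8.64 TPM, and Itgax at 1.69 to 13.0 and 6.64 to 54.3 TPM. The call of Itgax was lost in 8 of 10 limma fits with a library left out (adjusted p up to 0.110) and that of Siglech in 7, and the count of 3 was 1 without library 6 or without library 7. Of all genes tested, 2.57% were called higher without library 6 and 5.23% without library 7, beside 7.41% with all libraries. The dendritic cell list summed to 4.78 to 19.6 and 18.7 to 105 TPM.

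Of the B cell markers only Cd79a was tested, at 0.476 to 2.37 TPM in control and 0 to 4.80 TPM in cytokine mRNA tumours, and it did not pass (limma adjusted p = 0.961). Cd79b was at 0.549 to 1.50 and 0.799 to 9.98 TPM, and the list summed to 1.26 to 4.83 and 2.41 to 18.8 TPM. None of the tested basophil and mast cell markers passed: Kit was at 10.1 to 28.3 and 5.97 to 15.5 TPM and Mcpt4 at 0 to 3.27 and 0 to 16.3 TPM (limma adjusted p = 0.220 and 0.234). Fcer1a was listed at 0 in every library, and the list summed to 16.5 to 28.3 and 12.7 to 51.1 TPM.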
